A study of Mus musculus with 89 samples.

Results

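Lungs of mice given unmodified (core) copper oxide nanoparticles at the highest dose were compared with lungs of mice given none. By the sample labels, 3 samples were core CuO at 40 µg per day with a phosphate-buffered saline (PBS) challenge (CuO 40), and 7 were PBS-challenged controls without nanomaterial (PBS controls), so that the comparison used 10 of the 89 samples of the series directly. All animals were female BALB/c mice aged 6 to 8 weeks, and all of them, controls included, had been sensitized with ovalbumin and Alum, although none of these 10 samples was challenged with ovalbumin. Particles were given in PBS into the throat on 4 consecutive days and lung tissue was taken 24 h after the last dose, after blood had been drawn and the lungs lavaged. RNA samples were pooled by 2 before labelling, so the spread between samples is that between pools and not between single mice. The dose unit is µg in the description of each sample, whereas the treatment text of the labels gives mg for the same numbers. The CuO 10, CuO COOH 40 and CuO NH3 40 groups, with 3 samples each, were used where a dose or a surface was compared. COOH and NH3 name the surface modification of the particle. By the study's methods doses were equal in mass of whole material, so equal doses of core and modified particles did not hold equal copper.

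Copper is an essential metal that is toxic in excess. Cells bind free copper and zinc with metallothioneins, whose genes are switched on by the metal-sensing factor MTF1 through metal response elements in their promoters. Oxidants release the factor NRF2, which acts through antioxidant response elements on genes of glutathione synthesis and of haem and iron handling. Damaged proteins activate heat shock genes. In the lung, the first immune cells to meet an inhaled particle are the alveolar macrophages. Injured epithelium and macrophages release chemokines that call neutrophils from the blood through CXCR2 and monocytes through CCR2.

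The promoters of 4 genes are shown because these elements are read as letters in the sequence. They are the 250 bases before the start of Mt1 and Mt2, the metallothioneins of the lung, and of Srxn1 and Gclm, an enzyme that repairs oxidized peroxiredoxin and a subunit of the enzyme of glutathione synthesis. Sequences are from RefSeq (GRCm38.p6), 5′ to 3′, all on the plus strand. Capitals mark the metal response element core (TGCGCNC or TGCACNC, either strand) in Mt1 and Mt2 and the antioxidant response element core (TGACNNNGC, either strand) in Gclm and Srxn1.
Mt2, chr8:94172368-94172617: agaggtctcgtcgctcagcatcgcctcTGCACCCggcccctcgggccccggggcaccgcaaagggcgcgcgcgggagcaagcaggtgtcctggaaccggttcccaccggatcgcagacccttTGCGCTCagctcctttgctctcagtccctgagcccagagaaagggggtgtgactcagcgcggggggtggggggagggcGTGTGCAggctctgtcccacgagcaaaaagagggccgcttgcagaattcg
Mt1, chr8:94178839-94179088: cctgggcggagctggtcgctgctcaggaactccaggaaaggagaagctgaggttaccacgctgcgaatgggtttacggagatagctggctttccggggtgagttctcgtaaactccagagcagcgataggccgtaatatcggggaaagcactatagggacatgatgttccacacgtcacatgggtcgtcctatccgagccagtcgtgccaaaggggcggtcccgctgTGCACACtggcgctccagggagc
Gclm, chr3:122245307-122245556: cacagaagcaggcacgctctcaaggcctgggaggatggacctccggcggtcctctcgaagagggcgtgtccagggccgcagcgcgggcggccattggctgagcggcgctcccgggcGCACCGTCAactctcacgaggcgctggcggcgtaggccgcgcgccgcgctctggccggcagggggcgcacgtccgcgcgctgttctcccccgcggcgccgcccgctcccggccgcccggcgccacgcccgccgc
Srxn1, chr2:152105274-152105523: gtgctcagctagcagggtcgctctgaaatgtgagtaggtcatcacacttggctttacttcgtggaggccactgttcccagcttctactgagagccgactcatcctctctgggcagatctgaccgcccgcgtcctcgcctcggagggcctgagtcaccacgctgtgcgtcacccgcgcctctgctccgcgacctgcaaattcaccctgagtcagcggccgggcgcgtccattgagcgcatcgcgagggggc
The Mt2 window held 3 matches to the metal response element core, Mt1 held 1, Gclm held 1 match to the antioxidant response element core and Srxn1 none. Matches to the other motif are not in capitals: Mt2 also held 1 to the antioxidant core, Srxn1 1 and Gclm 2 to the metal core, and 1 of the 2 in Gclm overlapped the antioxidant match. Of the 32851 promoters of the same length in the table, 21.4% held at least 1 match to the metal response element core and 1.26% at least 3, while 10.2% held at least 1 match to the antioxidant response element core. These are matches of letters and no measurement of binding. Bases outside these windows, those after the start included, were not searched, so the counts may miss elements of a gene.

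RNA was measured on Agilent mouse 60-mer arrays that carry 2 samples each, one labelled with Cy3 and one with Cy5. Levels are given below as log2 of the normalized intensity with dye, slide and array position removed, and a level of one gene cannot be set against that of another. Of the spots, 58.5% to 65.5% were well above background in the CuO 40 samples and 53.3% to 68.4% in the PBS controls. Fold changes, their standard errors (SE) and adjusted p values are from a limma fit over all 89 samples with dye and array as terms, with p values adjusted by Benjamini-Hochberg across 22851 genes. Genes are said below to have risen or fallen, or to have been called, where the adjusted p was below 0.05 and the log2 fold change larger than 0.58 in either direction. The fitted fold change is not the difference of the printed levels: over the called genes it was a median of 1.29 times that difference, with the same sign in 3217 of 3218. In the fit the CuO 40 samples did not weigh equally, since replicate 2 carried a weight of 0.724 and replicates 1 and 3 carried 0.138 each. Nor did the controls: replicates 1, 2 and 3 carried -0.152, -0.269 and -0.441, and replicates 4 to 7 from -0.056 to 0.022. The fold changes are therefore not against a plain mean of the 7 controls. A second fit therefore used dye, slide and array position in place of array, with CuO 40 weights of 0.339, 0.361 and 0.300. It is given beside many of the main counts of calls, and a count printed without it may differ in that fit.

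In CuO 40, 3218 of 22851 genes were called, of which 1827 were higher (8.00% of genes tested) and 1391 lower (6.09%) than in the PBS controls. Of the called genes, 1416 changed by more than 1 on the log2 scale, 259 by more than 2, and 74 by more than 3, with 59 of these higher and 15 lower. The 3 CuO 40 samples lay above all 7 controls for 1787 of the called genes and below them for 1337, and did not overlap them for 36.5% of all genes tested. Slides 1, 2 and 3 each held 1 CuO 40 sample and 1 control, and all 3 within-slide differences had the direction of the fit in 99.0% of the called genes and in 46.9% of the others. These samples also gave the calls, so the shares are a description and no separate support. The largest rises and falls named below were picked among called genes without overlap, so their lack of overlap is no separate result. The fit with dye, slide and position called 2721 genes, of which 2329 were among the 3218, all with the same sign. When CuO 40 replicate 2 was left out, the array fit called 461 genes, 408 of them among the 3218, and 124 of the 3218 changed sign, whereas the fit with dye, slide and position called 2275, 1967 of them among the 3218. Without PBS control replicate 3 the array fit called 1990. Counts of list members without CuO 40 replicate 2 are therefore given below for both fits for most lists, with some of those without PBS control replicate 3.

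The samples read as lung in both groups. The surfactant gene Sftpc, made by alveolar type 2 cells, had levels of 17.58, 17.39 and 17.57 in CuO 40 and from 17.12 to 17.80 in the controls (median 17.69). The groups overlapped, as they did for the club cell gene Scgb1a1 (17.09 to 17.74 against 17.10 to 17.81) and the alveolar type 1 gene Ager (14.54 to 14.88 against 14.48 to 14.80), and none of these 3 genes was called. Heart muscle RNA varied between samples: the summed level of 12 cardiac genes ran from 12.79 to 13.74 in CuO 40 and from 12.96 to 15.51 in the controls. None of the 12 was called, whereas 8 were called lower in the fit with dye, slide and position. The plot of called members by gene list gives the overview that the next paragraphs fill in.

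**Figure D1:**
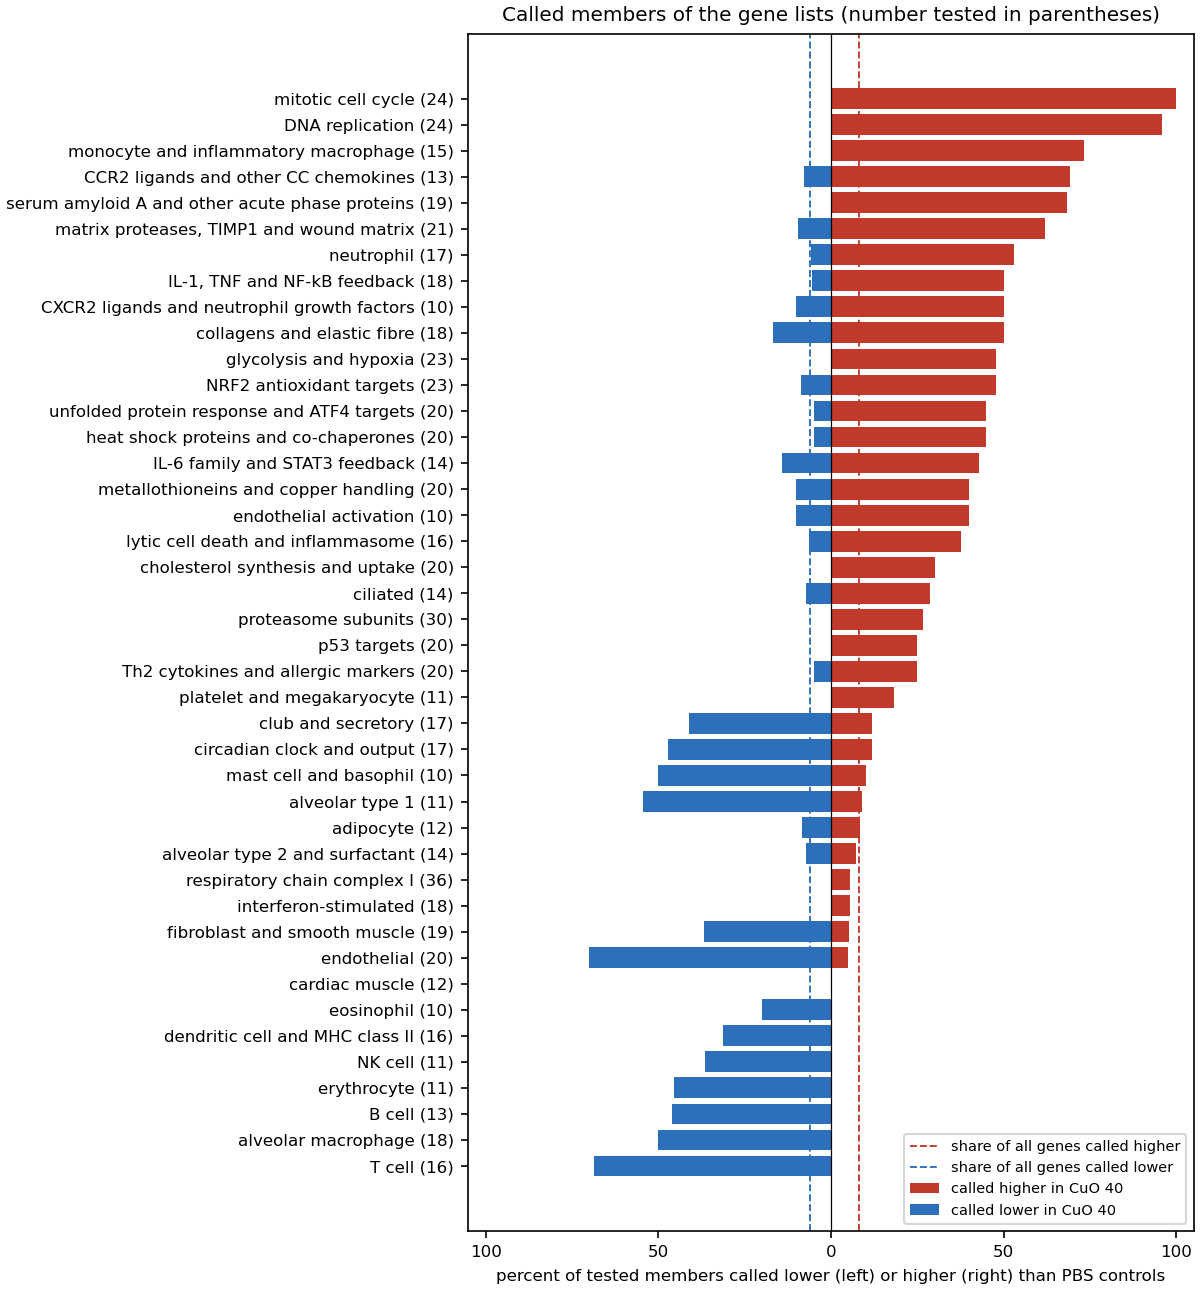
Share of the tested members of each of 42 gene lists that were called higher (red, to the right) or lower (blue, to the left) in CuO 40 than in the PBS controls, in percent, with the number of genes tested in parentheses. Dashed lines mark the shares over all genes, 8.00% higher and 6.09% lower. All 24 mitotic genes were called higher, and 11 of 16 T cell genes and 14 of 20 endothelial genes were called lower.

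Metallothionein and metalloreductase genes rose, while the genes of copper importers and copper-exporting ATPases were not called. Of 20 genes of metallothioneins and copper handling, 8 were called higher and 2 lower, with a median log2 fold change of 0.17 beside 0.01 over all genes. Mt2, with the 3 element matches shown above, stood at 14.69, 14.87 and 14.46 in CuO 40 and from 11.24 to 12.14 in the controls (median 11.53). Every CuO 40 sample lay above every control, and the fitted rise was 4.16 ± 0.33 (SE) on the log2 scale or 17.9-fold (adjusted p = 2.25e-08). Mt1 rose by 2.62 ± 0.20 (adjusted p = 2.12e-08), with levels of 11.85 to 12.08 against 9.76 to 10.45. The metalloreductases Steap1 and Steap4, which reduce copper and iron for uptake, rose by 2.91 ± 0.33 and 2.47 ± 0.34, and the zinc, iron and manganese importer Slc39a14 rose by 2.54 ± 0.26. The copper importer Slc31a1 (log2 fold change 0.16 ± 0.14, adjusted p = 0.582) and the copper-exporting ATPase Atp7a (-0.07 ± 0.14, adjusted p = 0.847) were not called. The zinc exporter Slc30a1 fell by 0.59, a call made in 13 of 21 fits, and extracellular superoxide dismutase Sod3 fell by 1.00. Once CuO 40 replicate 2 was removed, 3 of the 20 were called higher in the array fit and 7 in the fit with dye, slide and position.

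Antioxidant genes moved in both directions. Of 23 NRF2 targets 11 were called higher and 2 lower, with a median of 0.63, and 7 were called higher in the fit with dye, slide and position. Hmox1, haem oxygenase 1, was at 12.54, 13.51 and 12.90 in CuO 40 and from 8.15 to 10.82 in the controls (median 10.16). The groups were apart and the rise was 3.98 ± 0.33 (15.8-fold, adjusted p = 2.89e-08). The iron store subunit Fth1 rose by 1.71 ± 0.24, the cystine importer Slc7a11, well above background in 1 of the 7 controls, by 1.36 ± 0.26, and Srxn1 by 1.35 ± 0.21. The 2 subunits of the enzyme of glutathione synthesis, Gclc and Gclm, rose by 1.18 ± 0.21 and 0.75 ± 0.17. Nqo1, a quinone reductase often used to read NRF2 activity, had a log2 fold change of -0.04 ± 0.24 (adjusted p = 0.958), with levels of 6.82 to 7.01 against 6.61 to 7.14. The glutathione transferases Gstm1 and Gsta3 fell by 2.06 ± 0.25 and 1.60 ± 0.41, Gsta3 being also a gene of club cells. If CuO 40 replicate 2 was omitted, 2 of the 23 were called higher in the array fit and 5 in the fit with dye, slide and position.

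Protein-folding genes rose in part. Of 20 heat shock and co-chaperone genes 9 were called higher and 1 lower, with a median of 0.65, and the fit with dye, slide and position called 9 higher and 0 lower. Hspa1a, the inducible HSP70, stood at 13.68, 13.88 and 13.61 against 9.38 to 11.37 in the controls (median 9.81), a rise of 4.76 ± 0.87 (adjusted p = 0.000425). Its near-identical neighbour Hspa1b rose by 3.14 ± 1.04 (adjusted p = 0.0384), and a probe of one may read the other. The co-chaperone Stip1 rose by 1.56 and the constitutive HSP70 gene Hspa8 by 1.28, while the small heat shock gene Cryab fell by 0.67. Of 20 genes of the unfolded protein response and of ATF4, 9 were called higher and 1 lower, against 7 and 1 in the fit with dye, slide and position. The endoplasmic reticulum genes Sdf2l1 and Hspa5 rose by 1.98 and 1.16, the serine synthesis gene Psat1 by 1.64, the mitochondrial folate enzyme Mthfd2 by 1.45 and the stress factor Atf3 by 1.52, and the factor Atf5 fell by 0.66. Without CuO 40 replicate 2, the array fit called 0 of the heat shock genes and 2 of the unfolded protein response genes higher, and the fit with dye, slide and position called 7 and 8.

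The largest rises of the comparison were in acute phase genes, which are made in the lung as well as in the liver during inflammation. Of 19 acute phase genes 13 were called higher and none lower, with a median of 1.83. Saa3, the serum amyloid A of macrophages and epithelium, was at 15.24, 16.47 and 15.26 in CuO 40 and from 10.05 to 12.43 in the controls (median 11.28). All CuO 40 samples were above all controls and the rise was 6.18 ± 0.85 (72.3-fold, adjusted p = 1.72e-05). The orosomucoid genes Orm1 and Orm2 rose by 6.07 ± 0.70 and 5.38 ± 0.68, Saa1 by 5.75 ± 0.65, and Lcn2, the iron-carrier trap lipocalin 2, by 4.01 ± 0.54. Saa1 and Saa2, like Orm1 and Orm2, are close copies whose probes may not be specific. When CuO 40 replicate 2 was left out, 8 of the 19 were called higher in the array fit and 13 in the fit with dye, slide and position.

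Chemokines that draw monocytes and neutrophils rose. Among 13 CC chemokine genes 9 were called higher and 1 lower, with a median of 2.65. Ccl2, a CCR2 ligand, was at 12.30, 13.07 and 12.39 against 7.96 to 9.77 in the controls (median 8.85), with no overlap and a rise of 5.10 ± 0.66 (34.3-fold, adjusted p = 8.58e-06). The other CCR2 ligands Ccl7 and Ccl12 rose by 5.55 ± 0.67 and 3.30 ± 0.50, and Ccl4 rose by 3.20 ± 0.69. Ccl5, a chemokine made by T and NK cells, fell by 2.27. Of 10 genes of CXCR2 ligands and neutrophil growth factors 5 were called higher and 1 lower: Cxcl5 rose by 4.47 ± 0.69, Cxcl1 by 3.85 ± 0.54, Cxcl3 by 2.48 ± 0.55, Cxcl2 by 2.45 ± 0.35 and the receptor Cxcr2 by 2.39, while the growth factor receptor Csf3r fell by 0.90. For Cxcl2 and Cxcl3 only 1 of the 7 controls was well above background. Cxcl3 levels of 6.28, 7.88 and 7.31 overlapped those of the controls (5.52 to 6.47). Once CuO 40 replicate 2 was removed, the array fit called 2 of the 13 CC chemokine genes and 0 of the 10 CXCR2 genes higher, and the fit with dye, slide and position called 9 and 4.

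Cytokines of the IL-1 and IL-6 families changed one by one. Il6 stood at 7.09, 7.93 and 7.39 against 5.49 to 6.22 in the controls (median 5.80) and rose by 2.54 ± 0.39 (adjusted p = 5.52e-05), although only 2 of the 7 controls were well above background. Il11 rose by 1.74 ± 0.25, and the STAT3-induced feedback gene Socs3 by 1.33 ± 0.23. Il1b rose by 2.05 ± 0.50 and the alarmin Il33 by 1.90 ± 0.29, while the decoy receptor Il1r2, which blocks IL-1, rose by 3.54 ± 0.45. Il1a had a log2 fold change of -0.49 (adjusted p = 0.100), and Il18, at 8.65 to 9.39 against 10.51 to 10.78, fell by 2.34 ± 0.51 (adjusted p = 0.00203). In all 6 of 14 IL-6 family genes were called higher and 2 lower (the receptor subunits Il11ra1 and Lifr, by 1.05 and 0.67), and 9 of 18 genes of IL-1, TNF and NF-kB feedback higher and 1 lower. Of 16 genes of lytic cell death and the inflammasome 6 were called higher, among them the necroptosis kinase Ripk3 (1.54) and the membrane-rupture gene Ninj1 (1.12), and Il18 alone lower, while Casp1 had a log2 fold change of -0.07 and was not called. If CuO 40 replicate 2 was omitted, the array fit called 1, 0 and 0 genes of these lists higher, and the fit with dye, slide and position called 4, 5 and 4. With all samples the fit with dye, slide and position called 4, 8 and 4 genes of these lists higher, and the array fit without PBS control replicate 3 called 4, 6 and 2.

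Cell markers differed by cell type. In bulk tissue, fewer cells of a type and less RNA per cell cannot be told apart. Of 17 neutrophil genes 9 were called higher and 1 lower, with a median of 1.62, and their summed level was 16.88 to 17.28 in CuO 40 and 16.23 to 16.60 in the controls. Ltf, the granule protein lactoferrin, rose by 3.67 ± 0.70, the collagenase Mmp8 by 3.45 ± 0.42, the protease inhibitor Stfa2l1 by 3.50 ± 0.70 and S100a8, a calcium-binding protein abundant in neutrophils, by 2.41 ± 0.69. The 3 CuO 40 samples were above all controls for S100a8 with dye, slide and position removed, but overlapped them with nothing removed, and Csf3r was the 1 neutrophil gene that fell. Of 15 genes of monocytes and inflammatory macrophages 11 were called higher and none lower, with a median of 1.71. Their summed level overlapped between the groups, at 16.15 to 16.33 in CuO 40 and 15.93 to 16.23 in the controls. Arg1, arginase 1, rose by 4.27 ± 0.62, the lipopolysaccharide co-receptor Cd14 by 3.30 ± 0.31, and the lectin receptors Clec4d and Clec4e by 3.43 ± 0.32 and 2.78 ± 0.51. Ly6c2, the surface marker of classical monocytes, had levels of 15.34 to 15.52 against 15.43 to 15.87 and was not called. Without CuO 40 replicate 2, 2 of the neutrophil and 6 of the monocyte genes were called higher in the array fit, and 9 and 11 in the fit with dye, slide and position.

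Genes of alveolar macrophages were among the largest falls, as were globin genes. Of 18 such genes 9 were called lower and none higher, with a median of -0.96, and their summed level was 14.34 to 14.54 in CuO 40 and 15.53 to 15.98 in the controls. Ear2, a ribonuclease of eosinophils and resident macrophages, stood at 10.14, 10.05 and 10.15 in CuO 40 and from 13.59 to 14.09 in the controls (median 13.98). The samples of each group were close together and far from the other group, and the fall was 4.19 ± 0.45 (adjusted p = 6.76e-07). Fabp1, a fatty acid-binding protein, was at 6.06, 6.06 and 6.13 against 9.68 to 10.39 (median 10.12), a fall of 4.88 ± 0.63 (adjusted p = 7.58e-06). Only 2 of the 3 CuO 40 samples were well above background for Fabp1, so the size of its fall is uncertain. Ear1 and Ear10 fell by 4.11 ± 0.41 and 3.67 ± 0.36, although probes of the Ear family may read more than 1 member. Siglecf, the surface lectin by which these cells are gated, fell by 1.43 ± 0.22, and Pparg, the nuclear receptor needed for their identity, by 1.30. The other 9 of the 18 were not called. Of 10 eosinophil genes 2 were called lower, Siglecf and Ear6 (by 1.51), against 4 in the fit with dye, slide and position. Without CuO 40 replicate 2 those counts were 0 and 4. Lavage before sampling was common to both groups by the methods, and the number of cells it removed in each was not analysed here. When CuO 40 replicate 2 was left out, 3 of the 18 were called lower in the array fit and 10 in the fit with dye, slide and position.

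**Figure D2:**
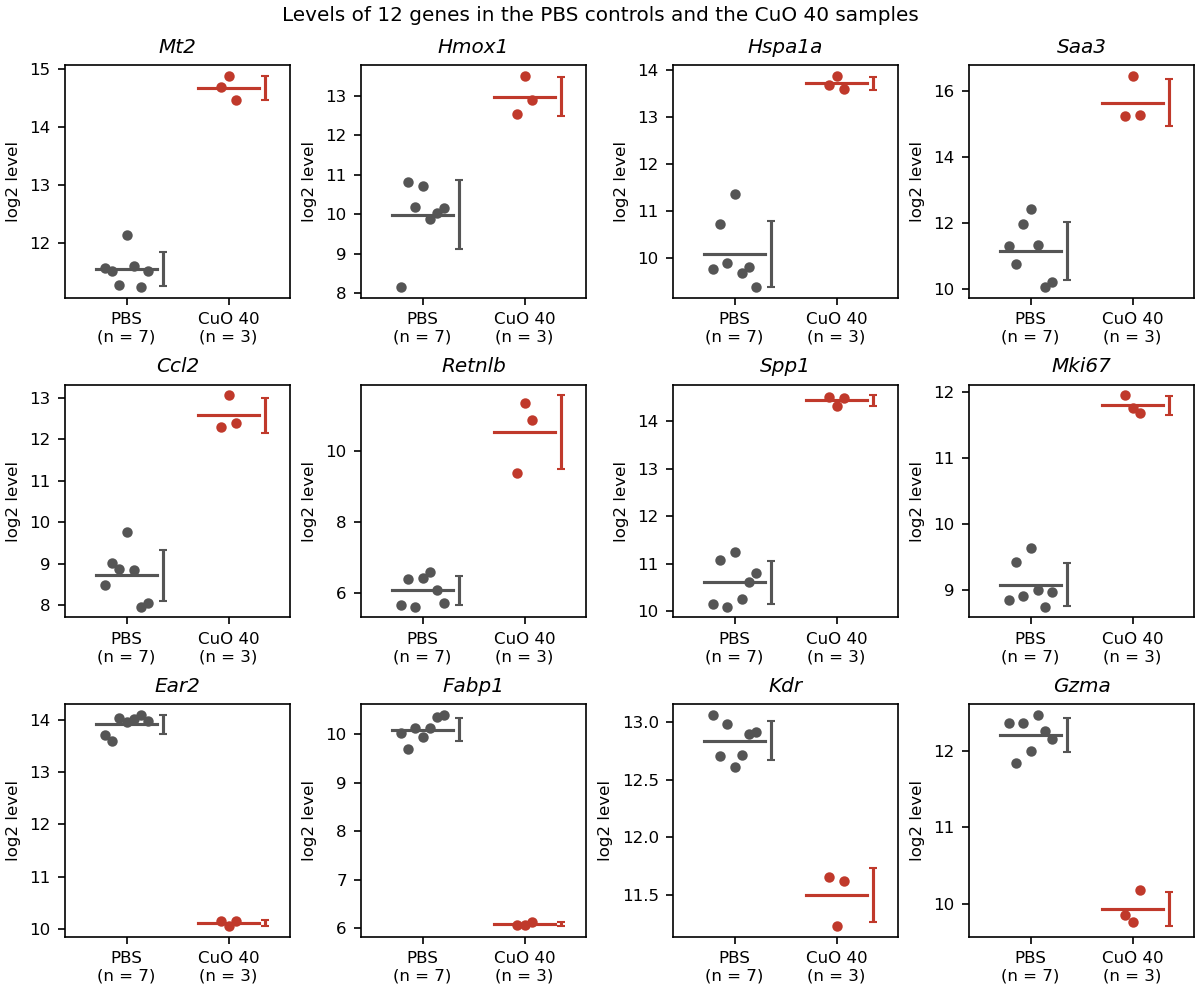
Levels (log2 normalized intensity with dye, slide and array position removed) of 12 genes in the 7 PBS controls (grey) and the 3 CuO 40 samples (red), with 1 point per sample, a line at the group mean and a bar of 1 SD to each side. Each panel has its own axis, which does not start at 0. The groups do not overlap in any of the 12 panels, but several of these genes were picked among genes without overlap. Over all genes tested 36.5% did not overlap. For Hmox1 1 control lies below the others.

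Many T cell genes and some B and NK cell genes fell. Of 16 T cell genes 11 were called lower and none higher, with a median of -1.23. Cd3d, a subunit of the T cell receptor complex, was at 8.50, 8.03 and 8.26 against 9.40 to 10.07 (median 9.77) and fell by 1.95 ± 0.33 (adjusted p = 0.000165). The signalling adaptor Skap1 and the transcription factor Lef1 each fell by 1.61, and Ccr7, the receptor that leads T cells and dendritic cells to lymph nodes, by 1.58. Cd3e, another subunit, had a log2 fold change of -0.52 (adjusted p = 0.182). Of 13 B cell genes 6 were called lower, among them Ms4a1 (by 1.98), Cd79b (by 1.77) and Fcrla (by 1.61). Of 11 NK cell genes 4 were called lower: Gzma, the protease granzyme A, fell by 2.84 ± 0.40, Il2rb by 1.28, Ncr1 by 1.12 and Klra8 by 1.07, and the fit with dye, slide and position called 6 lower. Of 16 genes of dendritic cells and MHC class II 5 were called lower, among them H2-Eb1 (by 1.35) and Clec9a (by 1.39), and none higher. The fit with dye, slide and position called 7 of the 16 lower and 1 higher. Once CuO 40 replicate 2 was removed, the array fit called 1, 0, 1 and 1 genes of these 4 lists lower, and the fit with dye, slide and position called 11, 6, 6 and 6. Without PBS control replicate 3 the array fit called 7, 1, 3 and 4.

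Globin genes also fell. Of 11 erythrocyte genes 5 were called lower, with a summed level of 15.89 to 16.57 in CuO 40 and 18.23 to 18.77 in the controls. Of the list, the beta-globin gene Hbb-bt was at 12.60, 13.20 and 13.10 against 15.74 to 16.65 (median 16.01) and fell by 3.74 ± 0.52 (adjusted p = 2.03e-05). Hba-a1 fell by 3.38 and Hba-a2 fell by 3.29, and of the globin genes outside the list Hbb-b2 fell by 3.63 and Hbb-b1 fell by 3.39, but globin copies share sequence and a probe may read several. Alas2, the haem synthesis enzyme of red cell precursors, fell by 3.41 ± 0.49. With CuO 40 replicate 2 left out, 2 of the 11 were called lower in the array fit and 6 in the fit with dye, slide and position. How much blood each sample held was not tested.

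Genes of the alveolar wall fell in part. Of 20 endothelial genes 14 were called lower and 1 higher, with a median of -1.01 and a summed level of 16.77 to 16.87 in CuO 40 against 17.62 to 17.94. Kdr, the main receptor for VEGF, was at 11.66, 11.23 and 11.62 against 12.61 to 13.06 (median 12.90) and fell by 1.68 ± 0.20 (adjusted p = 3.60e-06). The receptors Aplnr and Tek fell by 1.55 and 1.37, the pan-endothelial gene Pecam1 had a log2 fold change of -0.42 (adjusted p = 0.539), and the chemokine Cxcl12 rose by 1.41. With the brightest probe in place of the mean over probes, the value of Cxcl12 was -0.35 (adjusted p = 0.314 by limma) and no endothelial gene was called higher. Esm1, a secreted proteoglycan of endothelial tip cells, fell by 3.37 ± 0.40, while Selp and Lrg1, genes of activated vessels, rose by 1.38 and 3.11. Igfbp3, an IGF-binding protein, and Colq, which anchors acetylcholinesterase, are on none of the lists and were among the 12 largest falls: Igfbp3 fell by 3.65 ± 0.30 and Colq fell by 3.89 ± 0.37. If CuO 40 replicate 2 was omitted, the array fit called 0 of the 20 lower and the fit with dye, slide and position 15. Without PBS control replicate 3 the array fit called 9 lower.

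Epithelial genes divided by cell type. Of 11 alveolar type 1 genes 6 were called lower and 1 higher, with Clic5, Igfbp2 and Hopx falling by 1.71, 1.69 and 1.22. Of 14 alveolar type 2 and surfactant genes 1 rose, the collectin Sftpd, at 16.82, 17.15 and 16.75 against 15.89 to 16.05 (1.67 ± 0.21, adjusted p = 4.62e-06), and 1 fell, the transcription factor Etv5 (by 1.27). Of 17 club and secretory genes 7 were called lower and 2 higher. Cyp2f2, the cytochrome P450 of club cells, fell by 2.66 ± 0.44 and the carbonyl reductase Cbr2 by 2.41 ± 0.46. The mucin Muc5b rose by 2.04 ± 0.70 (adjusted p = 0.0482), a call made in 10 of 21 fits with values from 1.14 to 4.44, and the antibacterial lectin Reg3g by 4.60 ± 1.32 (adjusted p = 0.0170). Of 14 ciliated cell genes 4 were called higher, led by the master factor Foxj1 (1.55 ± 0.32), and Tppp3 fell by 1.70. The fit with dye, slide and position called 2 of the 14 higher, the replicate block 1 and the array fit without PBS control replicate 3 also 1. The mean over the ciliated list was at 0.00 ± 0.19 (SD, n = 3) from the controls. Its summed level was lower in CuO 40, at 14.25 to 14.75 against 14.91 to 15.19, so the ciliated list had no common direction. Of 19 fibroblast and smooth muscle genes 7 were called lower, led by Inmt (by 2.29) and Scube2 (by 1.71), and 1 higher. The fit with dye, slide and position called 5 of the 19 lower and 2 higher. Without CuO 40 replicate 2, the array fit called 0 of the type 1, 0 of the club and 1 of the fibroblast genes lower, and the fit with dye, slide and position called 5, 8 and 3. Of the ciliated genes the same fits called 1 and 2 higher, and without PBS control replicate 3 no club gene was called higher.

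Many genes of wound matrix rose. Of 21 genes of matrix proteases, TIMP1 and wound matrix 13 were called higher and 2 lower, with a median of 1.17. Spp1, osteopontin, stood at 14.50, 14.31 and 14.49 in CuO 40 and from 10.09 to 11.24 in the controls (median 10.61), a rise of 4.86 ± 0.35 (29.1-fold, adjusted p = 1.93e-08). Timp1, an inhibitor of matrix proteases, rose by 5.29 ± 0.61 and Tnc, the wound matrix protein tenascin C, by 2.48 ± 0.28. Timp3 and Postn, which encodes periostin, fell by 1.21 and 1.00, the call of Postn being made in 13 of 21 fits. Of 18 collagen and elastic fibre genes 9 were called higher and 3 lower. The fibrillar collagens Col1a1, Col3a1 and Col5a1 rose by 2.08 ± 0.35, 2.00 ± 0.26 and 1.77 ± 0.22 and the cross-linking enzyme Lox by 2.21 ± 0.22, whereas Col4a3 and Col4a4 of the alveolar basement membrane fell by 0.88 and 1.03 and the elastic fibre gene Fbln5 by 1.13. The 3 falls were not called in the fit with dye, slide and position, which called 11 of the 18 higher and none lower. When CuO 40 replicate 2 was left out, the array fit called 5 and 4 genes of these lists higher, and the fit with dye, slide and position called 14 and 11.

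Proliferation genes were the most uniform of the lists. All 24 mitotic genes were called higher, with a median of 2.66 and a lowest value of 0.73, and so were 23 of 24 DNA replication genes, with a median of 1.63. Mki67, the antigen Ki-67 of cycling cells, was at 11.96, 11.77 and 11.68 against 8.74 to 9.63 (median 8.97) and rose by 2.94 ± 0.22 (adjusted p = 2.12e-08). The cyclin Ccna2 rose by 3.16 ± 0.29, the survivin gene Birc5 by 3.11 ± 0.26, topoisomerase Top2a by 3.05 ± 0.22, the ribonucleotide reductase subunit Rrm2 by 3.09 ± 0.26 and the helicase subunit Mcm2 by 1.77 ± 0.22. The DNA replication gene that was not called was the cyclin Ccne2. Cdkn1a, the p53-induced brake on the cycle, rose by 1.49 ± 0.21, and 5 of 20 p53 targets were called higher (3 without PBS control replicate 3, and 1 and 4 in the 2 fits without CuO 40 replicate 2). Once CuO 40 replicate 2 was removed, 19 of the 24 mitotic and 9 of the 24 replication genes were called higher in the array fit, and 24 and 23 in the fit with dye, slide and position. Which cells were cycling cannot be read from bulk tissue.

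Metabolic and clock genes moved as well. Of 23 genes of glycolysis and hypoxia 11 were called higher and none lower, among them Ldha (1.42 ± 0.17) and Gapdh (1.55 ± 0.34), the second of which is often taken as a reference gene. Of 20 cholesterol genes 6 were called higher, led by Mvd (1.28), of 30 proteasome subunits 8, led by Psmb5 (1.01), and of 36 subunits of respiratory complex I 2, a share below that of all genes, and none of these were called lower. Proteasome calls were 6 in the fit with dye, slide and position, 4 with the replicate block and 5 without PBS control replicate 3, and without CuO 40 replicate 2 they were 0 in the array fit and 1 in the other. Cholesterol calls were 1 without PBS control replicate 3, and 0 and 5 without CuO 40 replicate 2. By limma with dye, slide and position or with the replicate block no complex I subunit was called. Of 17 clock genes 8 were called lower and 2 higher. Dbp, an output gene of the clock, was at 12.06, 11.30 and 11.37 against 14.06 to 14.69 (median 14.44) and fell by 3.18 ± 0.44 (adjusted p = 1.96e-05). Hlf and Nr1d1 fell by 2.13 and 1.78, while Nfil3, which represses the targets of Dbp, rose by 2.22 ± 0.24 and Arntl by 0.72, a call made in 11 of 21 fits. The hour of sampling of each group was not given in the sources used here, so time of day and exposure cannot be told apart for these genes. If CuO 40 replicate 2 was omitted, the array fit called 0 of the 17 clock genes lower and 4 of the 23 glycolysis genes higher, and the fit with dye, slide and position called 9 and 12. Without PBS control replicate 3, 4 of the clock genes were called lower.

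Of 20 Th2 and allergy genes 5 rose (Arg1, Retnla by 3.36 ± 0.61, Agr2 by 2.45 ± 0.71, Il33 and Ccl17 by 1.27) and 1, the epithelial cytokine Tslp, fell by 1.03. The fit with dye, slide and position called 6 of the 20 higher and 3 lower, and without CuO 40 replicate 2 the array fit called 2 higher and that fit 5. Il4 had a log2 fold change of -0.41 (adjusted p = 0.657) and was not called. Of 18 interferon-stimulated genes Cxcl10 alone was called (2.76 ± 0.95, adjusted p = 0.0479), in 14 of 21 fits, and Isg15, a ubiquitin-like protein induced by interferon, was at 11.76, 11.84 and 11.71 within the controls' range of 10.98 to 12.00. Retnlb, a resistin-like protein of mucosal epithelium, was among the largest rises: it was at 9.39, 11.37 and 10.88 against 5.61 to 6.58 (median 6.09), a rise of 5.50 ± 0.51 (45.2-fold, adjusted p = 1.20e-07). Ereg, the growth factor epiregulin, was not well above background in any control. Ereg was at 7.74, 8.49 and 8.46 in CuO 40, at least 5.21-fold higher than in the controls, taken at the lowest signal well above background, and its adjusted p was 3.09e-05. In all 49 called genes were well above background in no control and 11 in no CuO 40 sample.

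CuO 40 was next compared with CuO 10, to ask which of these changes grew with the dose. Against CuO 10, 773 genes were called, 441 higher (1.93% of genes tested) and 332 lower (1.45%). Of the 3218 genes called against the controls, 415 were also higher and 243 also lower than in CuO 10, 1 was called in opposite directions, and 2559 were not called against CuO 10. The 2 comparisons share the CuO 40 samples. In this fit 2 of the 3 CuO 40 samples shared an array with a CuO 10 sample, and the median SE was 0.121 against 0.195 in the comparison with controls. Without CuO 40 replicate 3 the fit called 406 genes, and 660 and 975 without replicates 2 and 1. Of these, 133, 297 and 410 were lower, so the lower calls depended on replicate 3. Counts of list members against CuO 10 are from the array fit with all samples and were not repeated in other fits.

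Smaller parts of the chemokine and acute phase lists than of the mitotic, matrix and alveolar macrophage lists were called between the 2 doses. Saa3 was at a mean of 15.40 at 2.5 µg, 15.44 at 10 µg and 15.66 at 40 µg, and the fitted difference between 40 and 10 µg was 0.01 ± 0.53 (adjusted p = 0.997). Of the 19 acute phase genes 4 were called higher and 2 lower than in CuO 10, of the 13 CC chemokine genes 1 and 2, and of the 10 CXCR2 genes 1 and 0. Over all genes tested the shares were 1.93% higher and 1.45% lower, so the acute phase list was not flat between these doses. Of the other lists, 22 of 24 mitotic, 12 of 24 replication, 10 of 21 matrix protease and wound matrix and 10 of 18 collagen genes were called higher than in CuO 10. Retnlb was at 6.99 at 2.5 µg and 6.95 at 10 µg, and was higher in CuO 40 than in CuO 10 by 3.26 ± 0.31 (adjusted p = 2.44e-06). Ereg was higher by 2.31 ± 0.26, the stefin genes Cstdc5 and Stfa1 by 2.39 ± 0.57 and 2.27 ± 0.50, Arg1 by 2.14 ± 0.39 and Mt2 by 1.44 ± 0.20.

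Against CuO 10, 10 of 18 alveolar macrophage, 10 of 16 T cell, 5 of 11 erythrocyte, 7 of 17 clock and 8 of 16 dendritic cell and MHC class II genes were called lower. Fabp1 was lower by 3.20 ± 0.39, Ear2 by 2.50 ± 0.28, Ear1 by 2.41 ± 0.26 and Hbb-bt by 2.32 ± 0.32, the 4 largest falls of this comparison. Of the 20 endothelial genes only 2 were called lower than in CuO 10. The mean over the interferon list stood 0.71 ± 0.16 (SD, n = 3) above the controls at 2.5 µg, 0.76 ± 0.56 at 10 µg and 0.04 ± 0.07 at 40 µg, and 1 of its 18 genes, Gbp3, was called between 40 and 10 µg (lower by 1.17, adjusted p = 0.0194). The mean over the heat shock list was 0.56 ± 0.19, 0.90 ± 0.16 and 0.60 ± 0.10 above the controls at the 3 doses, with Dnajb1, an HSP40, called lower in CuO 40 than in CuO 10 by 0.90 ± 0.26. The mean over the dendritic cell and MHC class II list was 0.36 ± 0.16 and 0.11 ± 0.13 above the controls at 2.5 and 10 µg and 0.45 below them at 40 µg. These means over lists are descriptions with no test.

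**Figure D3:**
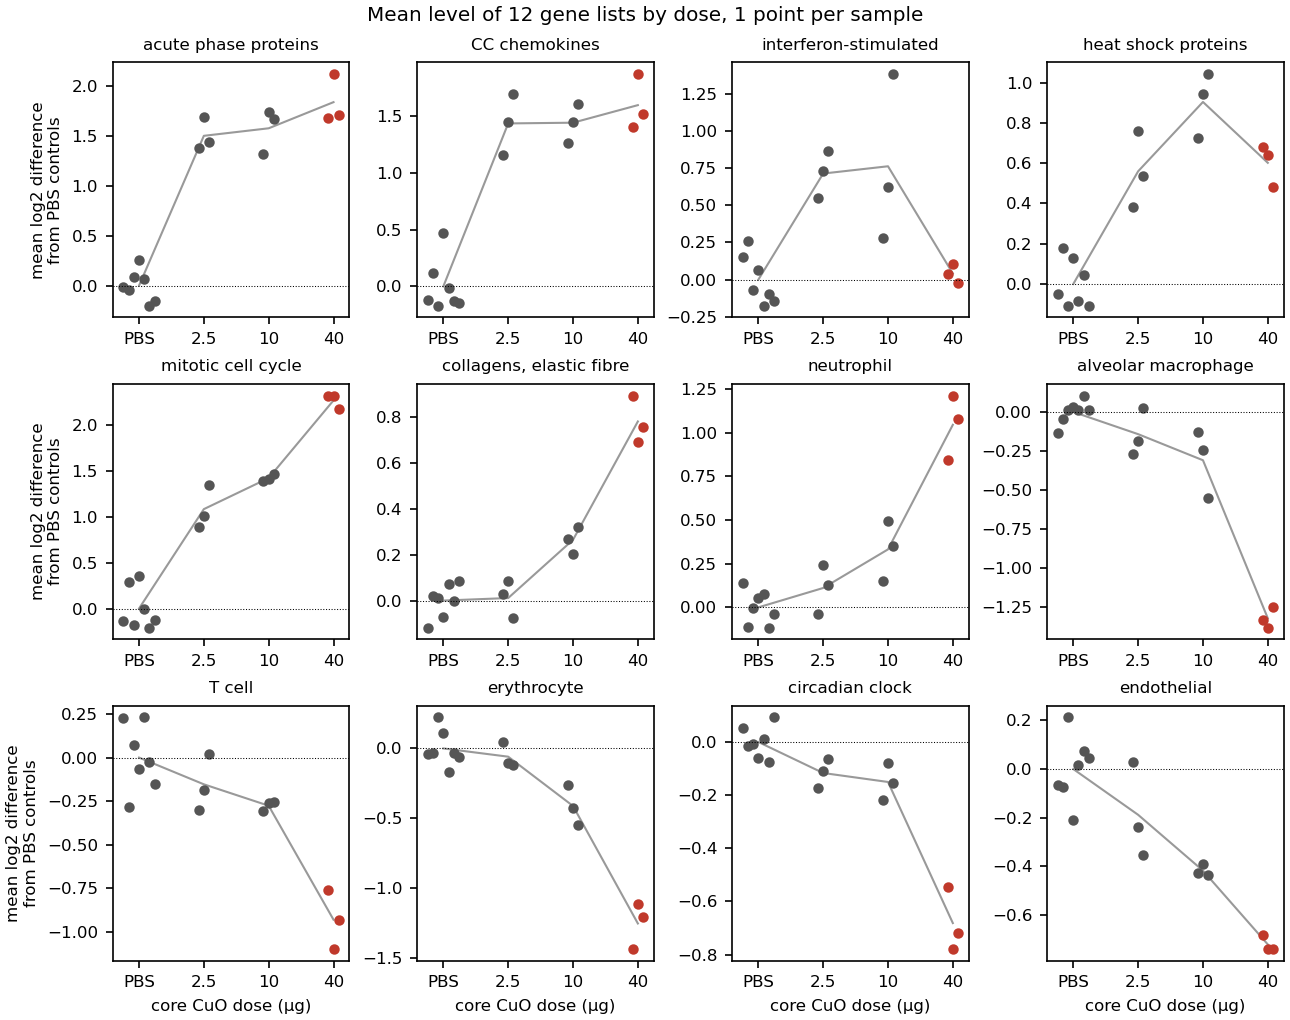
Mean log2 level over the tested members of 12 gene lists in each sample, as a difference from the mean of the 7 PBS controls, at core CuO doses of 2.5, 10 and 40 µg (3 samples each, CuO 40 in red), with dye, slide and array position removed and doses evenly spaced on the axis. Lines join group means. Acute phase and CC chemokine means were between 1.44 and 1.83 at every dose, interferon-stimulated genes were at 0.04 in CuO 40, and the alveolar macrophage mean was -0.14, -0.31 and -1.32.

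Last, core CuO was set against particles of the same dose with a modified surface. No gene was called by limma between CuO 40 and CuO COOH 40 (0.00% of genes tested) or between CuO 40 and CuO NH3 40 (0.00%), with 1047 and 967 genes at an unadjusted p under 0.05 and smallest adjusted p values of 0.269 and 0.160. The other limma fits did call genes: 26 and 26 with dye, slide and position, 11 and 709 with array as a random block, and 15 and 872 with the replicate block, in which replicate number stood in place of array. CuO 40 and CuO COOH 40 lay on slides 1 to 3 and CuO NH3 40 on slides 4 to 6. The random-block and replicate-block fits had no slide term, so in them slide and surface cannot be told apart for CuO NH3 40. The median half-width of the 95% interval of the difference was 0.479 for CuO COOH 40 and 0.466 for CuO NH3 40. For 72.5% and 76.3% of the 3218 genes called against the controls, that interval lay within 1 log2 unit of 0, and for the others it reached beyond 1. These comparisons do not show that the particles act alike.

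The intervals differed by gene. For Mki67 the difference was -0.01 (95% interval -0.56 to 0.54) from CuO COOH 40 and 0.12 (-0.42 to 0.65) from CuO NH3 40. For Saa3 they were 0.66 (-1.44 to 2.76) and 1.66 (-0.38 to 3.70), which leaves room for a difference of several-fold. The interval of Ear2 lay on one side of 0 in both comparisons without passing adjustment over all genes: it was lower in CuO 40 by 1.68 (-2.78 to -0.58) than in CuO COOH 40 and by 1.24 (-2.31 to -0.17) than in CuO NH3 40. Hmox1 had opposite signs, -0.93 (-1.74 to -0.12) against CuO COOH 40 and 1.36 (0.57 to 2.15) against CuO NH3 40. Beside these, the cardiac list had a median difference of 2.21 and 2.46, higher in CuO 40 than in the modified particles, and its part in the other values was not tested.

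**Figure D4:**
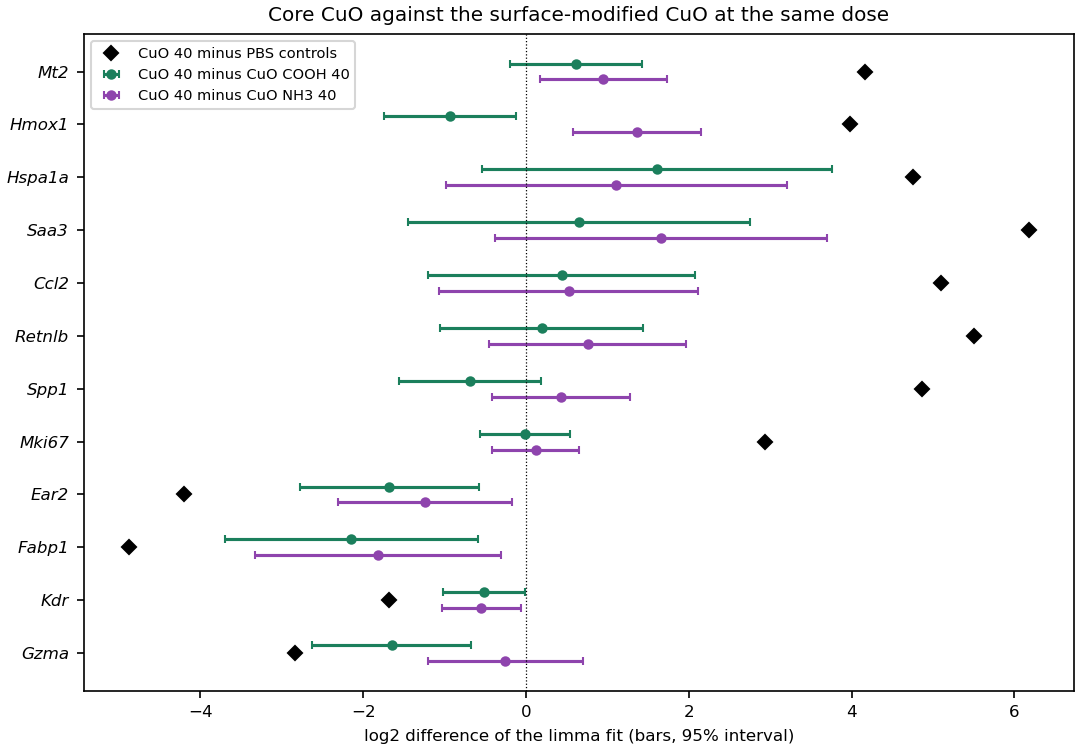
Fitted log2 differences of 12 genes between CuO 40 and the PBS controls (black diamonds), CuO COOH 40 (green) and CuO NH3 40 (purple), with 95% intervals for the last 2. No difference between core and modified particles passed the adjusted threshold. The intervals for Mki67 lie within 0.65 of 0, while those for Saa3 reach from -1.44 to 3.70.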

How the data were processed

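RNA was measured in 89 lung samples on 46 Agilent SurePrint 2-colour arrays. The authors deposited the scanner intensity of each spot, made with Agilent Feature Extraction (version 12.0.2.2 per the file headers), and a table of normalized log2 values. The study's methods name quantile normalization and then removal of dye and array effects with ComBat, but each deposited column kept the rank order of its scanner channel (lowest Spearman correlation 1), so the table was taken as the values before that removal. Here log2 of the median foreground of each sample's own dye channel was quantile normalized over all samples without background subtraction, control spots and outlier spots were left out, and probes were averaged per gene. Of 56605 probes, 32994 matched 1 RefSeq gene, and 23611 without one were not used. ComBat was not run, and dye and array were terms of the fit instead (limma 3.58.1 in R 4.3.3, lmFit and eBayes, moderated test with Benjamini-Hochberg adjustment, 17 residual degrees of freedom). Precision is limited by the number of arrays, since intensities hold no counts. The test was checked on simulated data with known changes.

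Members and gene lists were chosen with earlier results of these data known. Named genes were the 12 largest rises and falls with no overlap of groups, up to 4 called members and the first gene of each list, all members where 5 or fewer were called or went the other way, and the 4 largest rises and falls against CuO 10. Other list members named in the text, such as Nqo1, Srxn1, Gclm, Slc31a1 and Atp7a, were chosen after their values were seen. Near-identical gene copies are marked as uncertain. Replicate numbers 1 to 3 of CuO 40 and the controls lay on the same slides, and in that sense the numbers pair these samples. Deviations of same-numbered samples correlated at 0.221, 0.225 and 0.107, beside 0.0863 for CuO 40 replicate 3 with control replicate 2. The other controls are not paired in this way. Alternatives were normexp background correction, loess with Aquantile, leaving out dim probes, the brightest probe per gene, the deposited log2 table, dye with slide and array position, the replicate block, array as a random block, the 10 samples alone, same-slide controls and leaving out each sample. Leaving out samples in the fit with dye, slide and position was chosen after seeing the data. Samples of the other groups entered the fit but were not compared here, and 1 gene that the rule names is not reported here.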

Additional observations from a re-analysis of the deposited data

Results flagged for a closer look

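Among 163 named genes, 13 had 1 PBS control whose gap to the nearest other control was too large a share of the whole range by Dixon's test at the 95% level. Chance gives such a gap in about 1 in 20 groups. The share was 0.667 for Ccl4, 0.633 for Cxcl3, 0.780 for Etv5, 0.605 for Hopx, 0.764 for Mcm2, 0.597 for Mt2 and 0.670 for Saa1, all in control replicate 4. It was 0.645 for Hmox1 and 0.591 for S100a8 in replicate 1, 0.600 for Atf3 and 0.609 for Srxn1 in replicate 2, 0.625 for Colq in replicate 3 and 0.586 for Muc5b in replicate 6.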

How the results depend on the processing

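CuO 40 against PBS controls gave 2596 to 3643 called genes under the 10 alternatives other than leaving out each sample. When 1 sample was left out the array fit called 461 to 3255, with 461 without CuO 40 replicate 2 and 1990 without PBS control replicate 3. Against CuO 10 the leave-one-out range was 406 to 975, against CuO COOH 40 it was 0 to 2 and against CuO NH3 40 it was 0 to 1. With array as a random block 11 and 709 genes were called against CuO COOH 40 and CuO NH3 40, with dye, slide and position 26 and 26, and with the replicate block 15 and 872. Replicate numbers do not pair CuO 40 with CuO NH3 40, which lay on other slides. The replicate block called 2596 genes against the controls and 949 against CuO 10. The cause was not tested. Of 3260 values of 163 named genes under alternatives, 3007 kept their direction and side of the threshold, 209 lost the call, 9 gained it and 35 changed sign. Of the genes whose sign changed, Cxcl12 and Cd79b were called. They were with loess Ccne2 (-0.012), Isg15 (-0.035) and Nqo1 (0.036), and with the brightest probe Cxcl12 (-0.35). With array as a random block they were Ccne2 (-0.076), Dnajb1 (-0.20) and Nqo1 (0.0082), with dye, slide and position Ager (0.038), Ccne2 (-0.083), Dnajb1 (-0.021) and Nqo1 (0.091), and with the replicate block Ager (0.0059), Ccne2 (-0.027) and Dnajb1 (-0.0016). With the 10 samples alone they were Ccne2 (-0.12), Dnajb1 (-0.28) and Nqo1 (0.028), and with same-slide controls Ccne2 (-0.013) and Isg15 (-0.16). Leave-one-out ranges that crossed 0 were -0.80 to 0.41 for Isg15, -0.27 to 1.02 for Ager, -0.65 to 0.65 for Cd3e, -2.10 to 1.101 for Cd79b, -0.027 to 0.47 for Dnajb1, -0.34 to 0.36 for Ly6c2, -0.56 to 0.48 for Pecam1, -0.94 to 1.19 for Scgb1a1, -0.59 to 0.12 for Casp1, -0.024 to 0.13 for Ccne2 and -0.74 to 0.092 for Nqo1.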
